A study of Mus musculus with 18 samples.

Results

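The levels of 31 genes for enzymes of glycolysis, gluconeogenesis and fructose use were followed in mouse kidney cortex injured by aristolochic acid I (AAI), a plant toxin that damages the proximal tubule. The rule names genes by enzyme and uses no measured value, but the genes were chosen with earlier results of these data known. They cover hexokinases, the steps between glucose 6-phosphate and lactate, the steps that run glucose synthesis backwards past the irreversible points of glycolysis, ketohexokinase, malate dehydrogenase and a pyruvate dehydrogenase kinase. All 31 are among the 24062 genes of the table, and 30 of them passed the filter on low values. RNA came from the cortex of C57Bl/6 mice of 2 labelled genotypes, Klf6fl/fl (fl/fl below) and Klf6PTKO (PTKO below). The series title speaks of loss of the transcription factor KLF6 from the proximal tubule, and the Cre driver is not given in the sources used here. Mice of both genotypes received vehicle (DMSO) or a 3-week course of AAI, and a further AAI group was left to remodel for 3 more weeks, which the sample titles call 6 weeks. There were 3 libraries in each of the 6 groups, 18 in all. Nothing in the labels says that these came from separate mice, so the p-values measure the spread between libraries and may be technical. Ages, sexes and the week at which DMSO kidneys were taken are not given. Each genotype has a single DMSO group, so the 3-week and 6-week comparisons share their controls.

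Glycolysis splits glucose into pyruvate, and its committed steps are catalysed by hexokinase, phosphofructokinase and pyruvate kinase. Gluconeogenesis bypasses those steps with pyruvate carboxylase, phosphoenolpyruvate carboxykinase, fructose-1,6-bisphosphatase and glucose-6-phosphatase. In the kidney, glucose synthesis and the use of fructose are known as functions of the proximal tubule, which takes little glucose through glycolysis, while more distal segments rely on glycolysis.

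After AAI most enzymes of glucose synthesis and fructose use fell, and several glycolytic isoforms rose. Because the members of the falling group moved together, the promoters of 3 of them are shown with that of the hexokinase gene Hk2, whose rise was among the largest. They are 300 bases long, from 250 before to 50 after the start of the gene, read 5′ to 3′ on the gene's strand from RefSeq on the GRCm38.p6 build. The regions are chr2:173152823-173153122 on the plus strand (Pck1, cytosolic phosphoenolpyruvate carboxykinase), chr11:101367466-101367765 on the plus strand (G6pc, catalytic subunit of glucose-6-phosphatase), chr5:30921309-30921608 on the plus strand (Khk, ketohexokinase) and chr6:82774405-82774704 on the minus strand (Hk2). Capitals mark every match on either strand to 4 short motifs, and overlapping matches run together, as 2 hypoxia core matches do in Khk and a hypoxia core with a cAMP core in Hk2.
Pck1 promoter: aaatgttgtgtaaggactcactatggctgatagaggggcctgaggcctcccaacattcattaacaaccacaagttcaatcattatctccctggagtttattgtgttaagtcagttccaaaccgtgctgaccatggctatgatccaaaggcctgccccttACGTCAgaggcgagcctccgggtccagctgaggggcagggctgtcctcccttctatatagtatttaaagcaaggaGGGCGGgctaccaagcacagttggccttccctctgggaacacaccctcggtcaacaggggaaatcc
G6pc promoter: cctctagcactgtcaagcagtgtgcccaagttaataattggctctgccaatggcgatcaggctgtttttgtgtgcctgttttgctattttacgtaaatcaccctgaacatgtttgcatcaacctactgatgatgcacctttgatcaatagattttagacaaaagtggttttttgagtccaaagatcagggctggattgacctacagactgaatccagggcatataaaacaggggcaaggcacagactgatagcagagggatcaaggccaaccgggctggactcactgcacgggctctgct
Khk promoter: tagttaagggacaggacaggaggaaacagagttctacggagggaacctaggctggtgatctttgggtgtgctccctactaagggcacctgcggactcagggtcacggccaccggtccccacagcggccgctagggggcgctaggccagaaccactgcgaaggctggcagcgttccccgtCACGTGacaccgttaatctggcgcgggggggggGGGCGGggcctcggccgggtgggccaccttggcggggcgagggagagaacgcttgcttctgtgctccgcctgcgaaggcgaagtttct
Hk2 promoter: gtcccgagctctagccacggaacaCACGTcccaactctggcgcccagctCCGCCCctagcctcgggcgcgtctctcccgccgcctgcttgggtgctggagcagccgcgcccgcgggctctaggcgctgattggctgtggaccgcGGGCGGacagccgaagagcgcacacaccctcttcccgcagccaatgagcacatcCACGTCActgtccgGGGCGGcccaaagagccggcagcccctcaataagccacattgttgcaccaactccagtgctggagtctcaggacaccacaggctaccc
The motifs were an HNF4 core (CAAAGTC), a hypoxia response core (ACGTG), a KLF and SP box (GGGCGG) and a cAMP response core (TGACGT). All 31 genes matched the promoter table, with 50 promoters. The GGGCGG box was in 27 of these 50 and in 35.7% of 32851 mouse promoters, and the printed Hk2, Pck1 and Khk promoters hold it. That of G6pc holds none of the 4 motifs. The hypoxia core was in 21 of 50 against 19.6%, the cAMP core in 7 of 50 against 7.51%, and the HNF4 core in 1 of 50, a promoter of Fbp2, against 4.44%. Promoters of 1 gene can overlap, so the 50 are not independent. A match is a description of these letters and not a binding site.

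The deposited values are CPM, the reads of a gene scaled to a common library total, and recovered totals ran from 11722625 to 27213219 reads. Klf6 itself was 39.7, 39.2 and 42.3 CPM in the 3 fl/fl DMSO libraries and 40.2, 43.2 and 56.7 CPM in the PTKO ones, and 201 to 308 and 228 to 369.8 CPM across the AAI libraries of each. The whole-gene level therefore did not separate the genotype labels, which rest on the sample titles. Summed over 15 proximal tubule markers, the level was 25230 to 28420 CPM over the 6 DMSO libraries. It was 3304 to 5901 CPM in fl/fl and 6442 to 9308 CPM in PTKO after 3 weeks of AAI, and 4714 to 7971 CPM and 7963 to 10910 CPM at 6 weeks. Macrophage and monocyte markers (11 of 12 in the table) summed to 149.8 to 224.4 CPM under DMSO. After AAI they summed to 5513 to 9126 CPM (fl/fl) and 1860 to 3655 CPM (PTKO) at 3 weeks, and to 3149 to 5418 CPM and 1181 to 2581 CPM at 6 weeks. Markers of fibroblasts and pericytes summed to 128.8 to 300.1 CPM under DMSO, 2643 to 3375 CPM (fl/fl) and 1239 to 1530 CPM (PTKO) at 3 weeks, and 1230 to 2016 CPM and 235 to 815.9 CPM at 6 weeks. Those of the thick ascending limb were, in fl/fl, at 6370 to 10140 CPM under DMSO and 2157 to 4005 CPM at 3 weeks. In PTKO they were at 5333 to 7962 CPM under DMSO and 3881 to 6227 CPM at 3 weeks, with overlap. Fewer cells of a type and less RNA per cell cannot be told apart in bulk cortex. Libraries also differed within groups. PTKO 3-week replicate 1 lay nearest to the fl/fl libraries for several enzymes, fl/fl 6-week replicate 2 was the shallowest library, PTKO 6-week replicate 2 had an adipocyte marker sum of 435.3 CPM against 24.7 to 98.7 CPM in the other 17, and PTKO 6-week replicate 3 had the highest thick ascending limb marker sum of all 18, at 15420 CPM.

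The enzymes that make glucose were highest under DMSO and fell after AAI in both genotypes, apart from Pck2, Fbp2 and, in PTKO, Pck1. In PTKO Pck1 overlapped with DMSO at 3 weeks and lay below every DMSO library at 6 weeks, and neither difference was called. Pcx encodes pyruvate carboxylase, which makes oxaloacetate from pyruvate in mitochondria. In fl/fl cortex Pcx was 1186, 1249 and 1310.4 CPM under DMSO, 307, 189 and 142 CPM after 3 weeks of AAI and 199, 347 and 294 CPM at 6 weeks. In PTKO cortex Pcx was 1281, 1103 and 1074, 283, 450.5 and 509, and 407, 422 and 444 CPM in the same order. Every AAI library lay below every DMSO library. Pck1, whose product turns oxaloacetate into phosphoenolpyruvate in the cytosol, was 2487, 2862 and 2835 CPM under DMSO in fl/fl, 463, 186 and 209.6 CPM after 3 weeks and 366, 1535 and 683 CPM at 6 weeks. In PTKO cortex Pck1 was 4423, 2572 and 3236 CPM under DMSO, 403, 2110.4 and 4282 CPM after 3 weeks and 2356, 2229.7 and 2304 CPM at 6 weeks. The fl/fl AAI groups and the PTKO 6-week group did not overlap with DMSO of their genotype. The PTKO 3-week libraries spanned the widest range of any group, with replicate 1 among the fl/fl values and replicate 3 inside the DMSO range.

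Fbp1 encodes fructose-1,6-bisphosphatase, which removes a phosphate from fructose 1,6-bisphosphate. Its fl/fl values were 1158, 1227 and 1164 CPM under DMSO, 451, 259 and 254 CPM after 3 weeks and 349, 596 and 477 CPM at 6 weeks. Its PTKO values were 1271, 1314 and 1341, 392, 670.1 and 760.2, and 762, 834 and 583 CPM in that order. AAI and DMSO libraries were separate throughout. G6pc releases free glucose from glucose 6-phosphate, and in fl/fl it was 638, 830.4 and 821 CPM under DMSO, 200.2, 63.1 and 43.4 CPM after 3 weeks and 94.6, 201 and 126 CPM at 6 weeks. In PTKO cortex G6pc was 1041, 736 and 849.9, 105, 168 and 283, and 168, 307 and 358 CPM. Within the fl/fl 3-week group replicate 1 was high for G6pc, Pck1 and Fbp1 alike. Slc37a4, the carrier that brings glucose 6-phosphate to that enzyme in the endoplasmic reticulum, was 346, 337 and 328 CPM under DMSO in fl/fl, 101, 76.7 and 73.8 CPM after 3 weeks and 90.6, 168 and 125 CPM at 6 weeks. In PTKO it was 387, 352 and 314, 121, 149 and 194, and 176, 185 and 166 CPM. Neither genotype's AAI libraries reached its DMSO range.

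Ketohexokinase (Khk) phosphorylates fructose and starts its breakdown. Khk in fl/fl was 538, 544 and 544 CPM under DMSO, 114, 108 and 101 CPM after 3 weeks and 154, 272 and 171 CPM at 6 weeks. PTKO values were 571, 627 and 497 CPM, 175, 275 and 291 CPM and 318, 283 and 219.9 CPM. The 3 fl/fl 3-week libraries were the lowest of all 18. Mdh1, cytosolic malate dehydrogenase, which oxidises malate to oxaloacetate in the cytosol, was 1359.8, 1401 and 1297 CPM under DMSO in fl/fl, 587, 516 and 443 CPM after 3 weeks and 614, 866 and 631 CPM at 6 weeks. Its PTKO values were 1428, 1429 and 1371, 745, 918 and 892, and 1122, 969 and 957 CPM. No AAI library of either gene reached a DMSO library.

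Differences were tested with limma on log2(CPM + 1) across all genes, and a gene was called at a Benjamini-Hochberg adjusted p under 0.05. Calls below are those of limma on CPM unless another scaling or tool is named. All differences are on that scale, which understates the change of genes near 1 CPM. After 3 weeks in fl/fl 13 of the 30 enzymes tested were called higher and 11 lower, where 58% of all 14604 genes tested were called higher and 18.2% lower. At 6 weeks in fl/fl the counts were again 13 and 11, against 59.8% and 13.9% of all genes. In PTKO they were 13 and 9 at 3 weeks (57.2% and 13.9% of all genes) and 14 and 7 at 6 weeks (53.7% and 11.4%). Under CPM the share of enzymes called higher was thus below that of all genes, and the share called lower above it. Under quantile normalization the share called higher was above that of all genes in the 4 comparisons, with 11, 11, 11 and 13 enzymes higher in the same order against 31.6%, 28%, 27% and 22.7% of all genes. There 12, 12, 10 and 9 were lower, against 38.9%, 36.4%, 35.9% and 29.1%. Among the 7 genes described so far, the falls after 3 weeks in fl/fl ran from 1.40 (Mdh1, SE 0.14) to 3.37 (Pck1, SE 0.64, adjusted p = 0.000174). G6pc dropped by 3.19, Pcx by 2.62, Khk by 2.32, Slc37a4 by 2.01 and Fbp1 by 1.93, each with a smaller adjusted p than Pck1. At 6 weeks the same 7 genes were lower in fl/fl by 0.96 (Mdh1) to 2.49 (G6pc, adjusted p = 0.00017). The Pck1 difference at 6 weeks was -1.90, SE 0.64, adjusted p = 0.0139, and without fl/fl 6-week replicate 1 it missed the threshold, with an adjusted p of 0.0798. In PTKO, 6 of the 7 were called lower at each time, by 0.73 (Mdh1) to 2.33 (G6pc) at 3 weeks and by 0.48 to 1.71 at 6 weeks. Pck1 was not called in PTKO, where its difference was -1.11 at 3 weeks (95% interval -2.47 to 0.25, adjusted p = 0.132) and -0.53 at 6 weeks (95% interval -1.90 to 0.83, adjusted p = 0.475). Those intervals hold both no change and a fall of more than 1 log2 unit. Under quantile normalization in PTKO, the Mdh1 difference was -0.25 at 3 weeks and -0.01 at 6 weeks and that of Fbp1 was -0.48 at 6 weeks, none of them called.

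Pck2 and Fbp2, the other isoforms of the falling enzymes, did not follow them. Pck2 is the mitochondrial phosphoenolpyruvate carboxykinase and also a known target of the amino acid stress response. It was 13.2 to 21.1 CPM in fl/fl DMSO libraries and 28.4 to 36.3 CPM after AAI, and 11.6 to 14.7 CPM and 22.1 to 32.7 CPM in PTKO. The AAI libraries were all above the DMSO libraries, and Pck2 rose by 0.93 (SE 0.15, adjusted p = 3.65e-05) at 3 weeks in fl/fl. Its rises in the other 3 AAI comparisons were 1.05 (PTKO, 3 weeks), 0.83 (fl/fl, 6 weeks) and 0.83 (PTKO, 6 weeks). At 6 weeks the call did not hold under all 3 scalings in either genotype. Fbp2, the fructose-1,6-bisphosphatase best known from muscle, ranged from 9.32 to 15.2 CPM under DMSO and 13 to 21.5 CPM after AAI, and its differences of 0.36 to 0.41 were not called in any AAI comparison. The Fbp2 groups overlapped in all of these but fl/fl at 3 weeks.

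**Figure D1:**
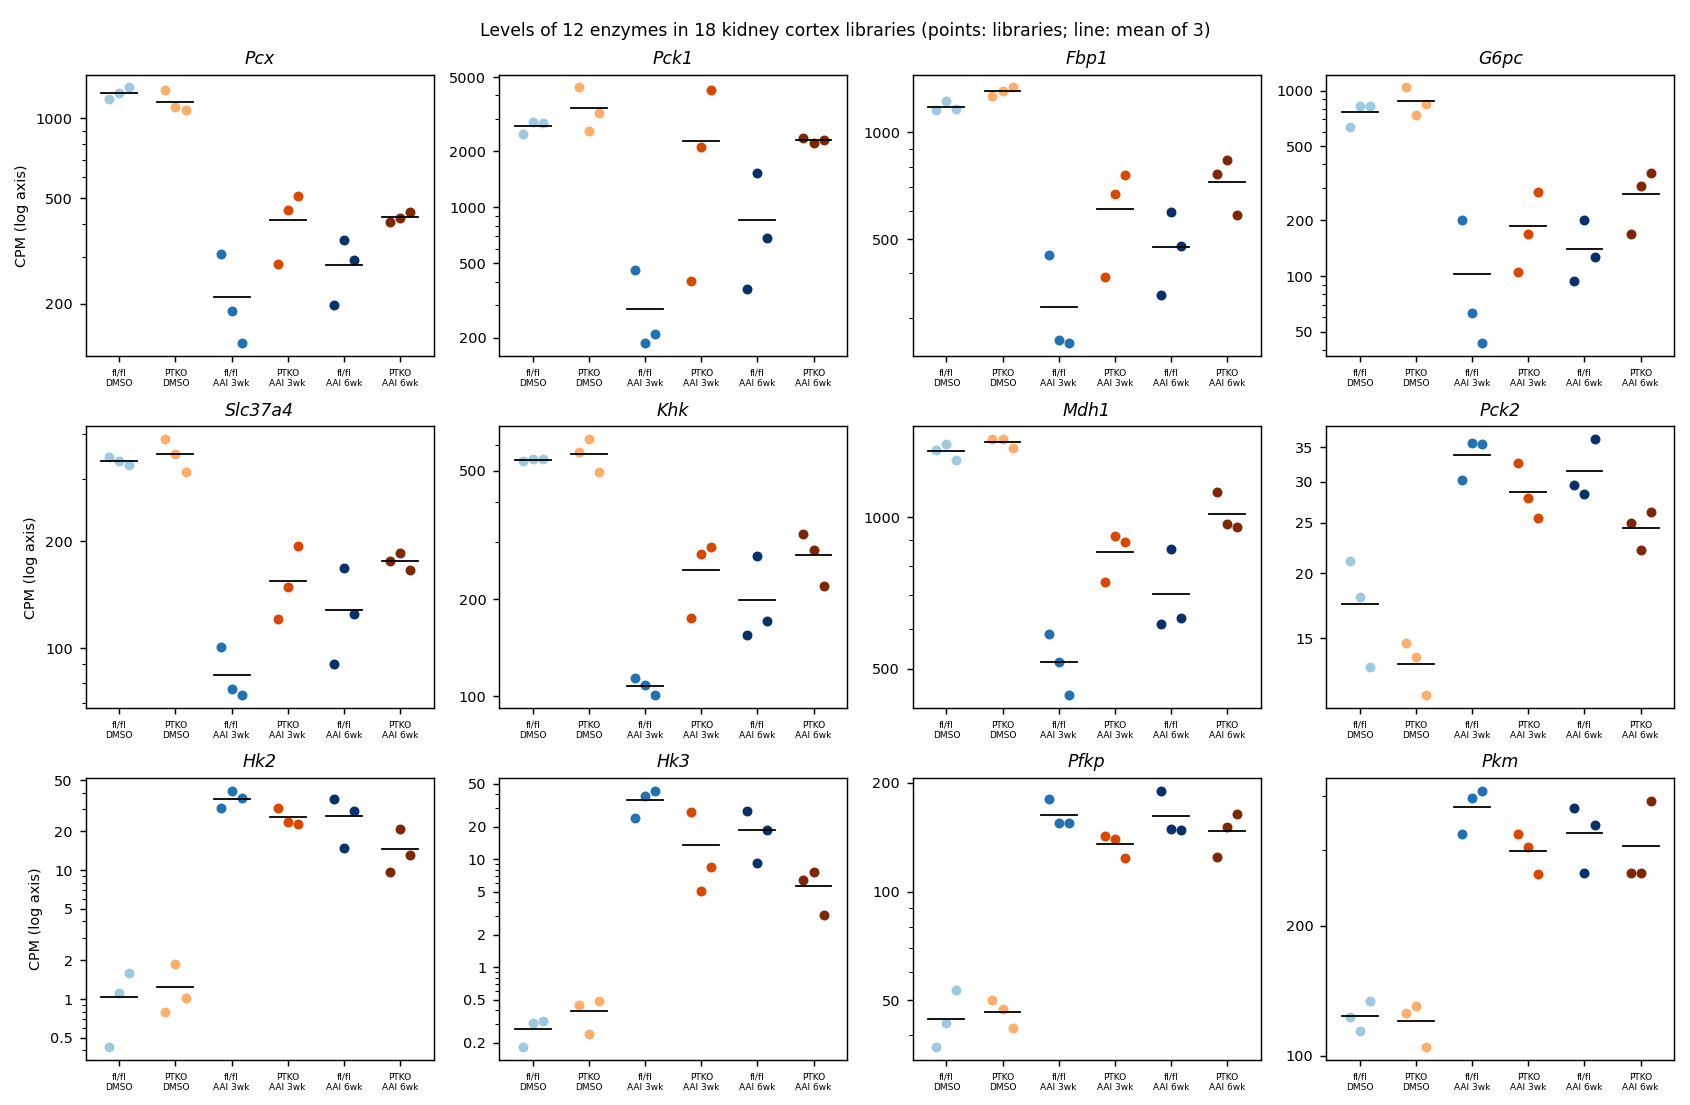
CPM (log axes) of 12 enzymes in 18 kidney cortex libraries, by genotype, treatment and time, where a point is a library and a line the mean of 3. Pcx, Fbp1, G6pc, Slc37a4, Khk and Mdh1 lie lower in each AAI library than in any DMSO library of the same genotype, Pck1 does so in fl/fl and in PTKO at 6 weeks, and Pck2, Hk2, Hk3, Pfkp and Pkm lie higher.

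At the entry to glycolysis all 3 hexokinases rose in the 4 AAI comparisons. Hk1, the broadly expressed form, was 122 to 146 CPM in fl/fl DMSO libraries and 224 to 339 CPM after AAI, and 98.5 to 135 CPM and 235 to 439.7 CPM in PTKO. Hk2, an inducible form that binds mitochondria, was 0.424, 1.12 and 1.59 CPM under DMSO in fl/fl, 30.2, 41.1 and 36.0 CPM after 3 weeks and 35.7, 14.8 and 28.9 CPM at 6 weeks. The PTKO libraries were at 0.799, 1.88 and 1.02, 30.4, 23.7 and 22.9, and 9.66, 20.8 and 13.04 CPM. The lowest AAI library was several times the highest DMSO library. Hk3, a form known from myeloid cells, was 0.182, 0.305 and 0.317 CPM under DMSO in fl/fl, 24.1, 38.8 and 42.8 CPM after 3 weeks and 28.1, 9.3 and 18.5 CPM at 6 weeks. Its PTKO levels were 0.45, 0.241 and 0.485, 27.4, 5.07 and 8.47, and 6.39, 7.63 and 3.02 CPM. PTKO 3-week replicate 1 was inside the fl/fl 3-week range for Hk3 and the other 2 were below it. At 3 weeks in fl/fl, Hk3 rose by 4.80 (SE 0.46, adjusted p = 1.22e-07), Hk2 by 4.20 (SE 0.31, adjusted p = 7.82e-09) and Hk1 by 0.87 (SE 0.18, adjusted p = 0.000454). The macrophage and fibroblast marker sums were also higher in most AAI libraries, as given above, and their part in the rises of glycolytic genes was not tested.

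Among phosphofructokinases, the platelet form Pfkp rose, the liver form Pfkl rose less and the muscle form Pfkm fell. Pfkp in fl/fl was 37.1, 43.1 and 53.3 CPM under DMSO, 180.2, 155 and 155 CPM after 3 weeks and 189.8, 149 and 148 CPM at 6 weeks. Those of PTKO were 50.1, 47.4 and 41.9, 143, 140.0 and 124, and 125, 151 and 164 CPM. All AAI libraries of Pfkp were apart from all DMSO libraries, with a 3-week rise of 1.86 (SE 0.14, adjusted p = 6.73e-09) in fl/fl and 1.53 (SE 0.14) in PTKO. Pfkm in fl/fl was 68.8, 63.7 and 65.2 CPM under DMSO, 45.8, 43.4 and 41.9 CPM after 3 weeks and 50.4, 58.6 and 54.3 CPM at 6 weeks. Pfkm in PTKO was 62.4, 61.6 and 55.1, 54.9, 59.3 and 54.7, and 61.4, 47.7 and 66.3 CPM. It fell in fl/fl by 0.58 at 3 weeks (adjusted p = 7.72e-05) and by 0.27 at 6 weeks (adjusted p = 0.0236), and under CPM was not called in PTKO, where the groups overlapped. In PTKO it was called lower when scaled by the median of gene ratios, called ratio scaling below (-0.53 at 3 weeks, -0.43 at 6 weeks), by quantiles (-0.41 and -0.30), by edgeR and by DESeq2. Pfkl was 50.5 to 61.7 CPM under DMSO and 83.4 to 149 CPM after AAI, with the highest value in PTKO 6-week replicate 3. Its calls of 0.65 to 0.90 held under all 3 scalings only in PTKO at 6 weeks.

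Fructose 2,6-bisphosphate activates phosphofructokinase and inhibits fructose-1,6-bisphosphatase, and the Pfkfb enzymes make and remove it. Pfkfb3, whose kinase activity is far above its phosphatase activity, was 16.97 to 29.0 CPM under DMSO and 46.8 to 78.7 CPM after AAI, and rose by 1.21 to 1.44. Pfkfb4 in fl/fl was 9.75, 9.2 and 11.5 CPM under DMSO, 27.0, 31.7 and 34.9 CPM after 3 weeks and 28.7, 21.5 and 30 CPM at 6 weeks. In PTKO it was 8.29, 10.6 and 7.54, 26.0, 15.7 and 21.7, and 18.6, 17.1 and 20.3 CPM. AAI and DMSO libraries of Pfkfb3 and Pfkfb4 did not overlap, and both rose in all 4 AAI comparisons under each of 3 scalings. Pfkfb2, the form described in heart and kidney, was 28.6 to 37.8 CPM under DMSO and 25.2 to 38.4 CPM after AAI and was not called under CPM, its nearest comparison being fl/fl at 3 weeks (-0.24, SE 0.11, adjusted p = 0.0551). It was called lower in the 4 comparisons by ratio scaling (-0.70 to -0.29), by quantiles (-0.73 to -0.30), by edgeR and by DESeq2.

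Pyruvate kinase closes glycolysis, and both its genes were higher after AAI. Pkm, the form of most tissues, was 123, 114 and 134 CPM under DMSO in fl/fl, 326, 395 and 409.7 CPM after 3 weeks and 374, 264 and 342 CPM at 6 weeks. In PTKO Pkm was 126, 130.4 and 105, 326, 304 and 263, and 265, 264 and 389 CPM. These groups stood apart from DMSO, and Pkm rose by 1.30 (PTKO, 3 weeks) to 1.60 (fl/fl, 3 weeks, SE 0.16, adjusted p = 1.79e-07). Pklr, the form of liver, kidney and red cells, was 48.7, 48.3 and 48.2 CPM under DMSO in fl/fl, 71.8, 56.2 and 61.6 CPM after 3 weeks and 78.6, 88.0 and 109 CPM at 6 weeks. In PTKO Pklr was 53.1, 49.8 and 44.8, 68.3, 106 and 109, and 94.5, 95.1 and 111 CPM. PTKO replicate 1 again fell inside the fl/fl 3-week range. The rise of Pklr at 3 weeks in fl/fl (0.37, SE 0.15, adjusted p = 0.0389) changed sign when scaled by the median of gene ratios, at -0.09, and by quantiles, at -0.01. In the other 3 comparisons the rise was 0.89 to 1.01 and held under those scalings.

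Of the reversible middle steps, which serve both directions, Aldoc rose under CPM and the other differences were smaller. Aldoc, an aldolase better known from brain, was 4.04 to 10.4 CPM under DMSO and 13.7 to 51.9 CPM after AAI, with the top value in PTKO 6-week replicate 3, whose thick ascending limb marker sum was also the highest, and rose by 0.94 to 1.87. Its call held under all 3 scalings only in PTKO at 6 weeks. In fl/fl it was not called by ratio scaling (0.51 at 3 weeks, 0.64 at 6 weeks), and by quantiles it was not called in fl/fl (0.18 and 0.34) or in PTKO at 3 weeks (0.60). Aldoa, the general aldolase (783 to 885 CPM under DMSO, 916 to 1483 CPM after AAI), and the isomerase Gpi1 (359 to 374 CPM and 411 to 576 CPM) were called higher in fl/fl by 0.33 and 0.20 at 3 weeks. Both signs turned when scaled by the median of gene ratios, at -0.13 and -0.26. Tpi1, triose phosphate isomerase, was 647 to 722 CPM under DMSO and 469.9 to 700.1 CPM after AAI and fell by 0.48 at 3 weeks in fl/fl and 0.38 in PTKO. These 3-week calls did not hold under all 3 scalings in either genotype. At 6 weeks Tpi1 was called under CPM in fl/fl alone, with the opposite sign under quantile normalization (0.09). For lactate dehydrogenase the calls turned on the scaling. Ldha was 395 to 476 CPM under DMSO and 357 to 465 CPM after AAI, and Ldhb was 724 to 813 CPM and 623 to 896 CPM. Under CPM their only calls were small falls of 0.23 to 0.25 (Ldhb, 3 weeks) and 0.24 (Ldha, fl/fl, 6 weeks), and each of these 3 turned positive under quantile normalization, where Ldhb was called higher in PTKO at 6 weeks (0.33). Ratio scaling (-0.72 to -0.38), edgeR and DESeq2 called both genes lower in the 4 comparisons. Pdk1, which shuts pyruvate out of the citric acid cycle by inhibiting pyruvate dehydrogenase, was 23.3 to 45.6 CPM under DMSO and 39.1 to 108 CPM after AAI. It was called higher in PTKO (0.83 at 3 weeks, 0.96 at 6 weeks), not in fl/fl (0.11 and 0.48), and the PTKO calls did not hold under all 3 scalings.

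For 4 glycolytic enzymes the table holds low values that cannot be read as the level of the enzyme. Gapdh, one of the most abundant glycolytic messages in most tissues, was listed at 0.842 to 2.81 CPM, Pgk1 at 7.61 to 15.5 CPM and Pgam1 at 6.73 to 11.6 CPM. Eno1 was listed at 0 in 17 of 18 libraries and at 0.0405 CPM in PTKO 3-week replicate 3, and it was not tested. In the transcripts of the GENCODE annotation, 27.2% of the 31-base stretches of Gapdh also occur in transcripts of other genes, 318 of them pseudogenes. The share was 54.7% for Pgk1, 37.1% for Pgam1 and 28.5% for Eno1, and it was also high for Pkm (34.7%), Ldhb (33%) and Ldha (19.6%). How reads shared with such copies were assigned was not tested. Hk1, Hk3, Aldoc, Fbp1, Fbp2, G6pc, Slc37a4, Khk and Mdh1 share no such stretch with another gene. Pgk1 was called lower in the 4 AAI comparisons (by 0.38 to 0.42), and Gapdh and Pgam1 were not called under CPM. By quantiles both were lower in the 4 comparisons (Gapdh by 0.67 to 1.09, Pgam1 by 0.61 to 0.90), and by ratio scaling, edgeR and DESeq2 Pgam1 was called lower in fl/fl at 6 weeks.

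Between genotypes, which do not share libraries, 12 of the 13 risers in fl/fl and 12 of the 13 in PTKO at 3 weeks were the same genes, as were 9 of the 11 fl/fl and 9 of the 9 PTKO falls. Of all genes, 58% (fl/fl) and 57.2% (PTKO) were called higher and 18.2% and 13.9% lower. The overlap of those all-gene calls is not given here, so the shared calls are not read as particular to these enzymes. The median difference over all genes was 0.45 after 3 weeks in fl/fl, against -2.17 for the 8 enzymes of glucose synthesis and fructose use and 0.75 for 17 glycolytic enzymes tested. In PTKO at 3 weeks these medians were 0.415, -1.18 and 0.65. At 6 weeks they were 0.45, -1.46 and 0.655 in fl/fl and 0.36, -0.93 and 0.90 in PTKO. A rise smaller than the median of all genes is no rise relative to the typical gene. Scaling by the median of gene ratios took that median to 0.03 in fl/fl at 3 weeks, and the counts there became 8 higher and 14 lower, against 36.7% and 34.2% of all genes. Under that scaling the counts were 9 and 14 in fl/fl at 6 weeks (34.1% and 32.5% of all genes), 10 and 13 in PTKO at 3 weeks (32.9% and 31.3%), and 11 and 12 in PTKO at 6 weeks (28.7% and 28.9%). Called in the same direction under CPM, ratio and quantile scaling at 3 weeks in fl/fl were 8 risers (Hk1, Hk2, Hk3, Pfkp, Pkm, Pfkfb3, Pfkfb4 and Pck2) and 9 falls (Pfkm, Pgk1, Pcx, Pck1, Fbp1, G6pc, Slc37a4, Khk and Mdh1).

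**Figure D2:**
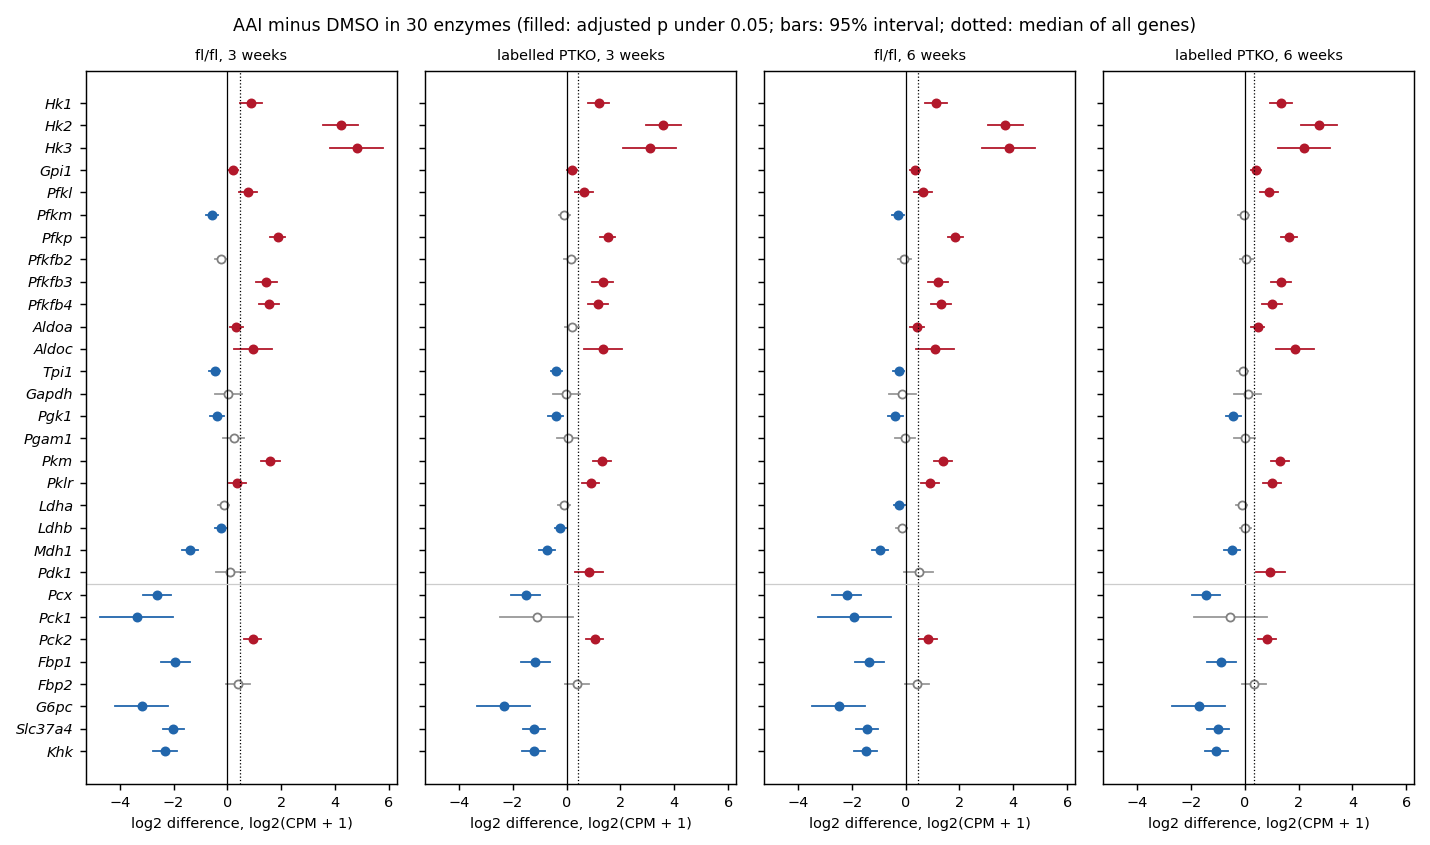
Difference between AAI and DMSO libraries on the log2(CPM + 1) scale for 30 enzymes in each genotype and time, with 95% intervals from limma, where filled points were called and the dotted line is the median of all genes. Hexokinases, Pfkp, Pkm, Pfkfb3 and Pfkfb4 lie to the right in every panel, and below the grey line Pcx, Fbp1, G6pc, Slc37a4 and Khk lie to the left while Pck2 lies to the right.

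To set the 2 directions against each other within a library, the mean log2(CPM + 1) of 18 glycolytic enzymes was subtracted from that of the 8 enzymes of glucose synthesis and fructose use. The result was 3.45 ± 0.12 (SD, n = 3) in fl/fl and 3.48 ± 0.13 (SD, n = 3) in PTKO under DMSO. It was 0.72 ± 0.45 (SD, n = 3) in fl/fl and 1.78 ± 0.57 (SD, n = 3) in PTKO after 3 weeks, and 1.37 ± 0.58 and 1.99 ± 0.13 (SD, n = 3 each) at 6 weeks. Every AAI library, at 0.38 to 2.21, lay below every DMSO library, at 3.31 to 3.61. After 3 weeks the fl/fl libraries were at 1.24, 0.56 and 0.38 and the PTKO libraries at 1.13, 1.99 and 2.21, so the genotypes overlapped through PTKO replicate 1. No test is given, since the enzymes were chosen with earlier results known. Without the 4 low-listed enzymes, the means became 2.62 and 2.68 under DMSO and -0.38 and 0.72 after 3 weeks, in fl/fl and PTKO.

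**Figure D3:**
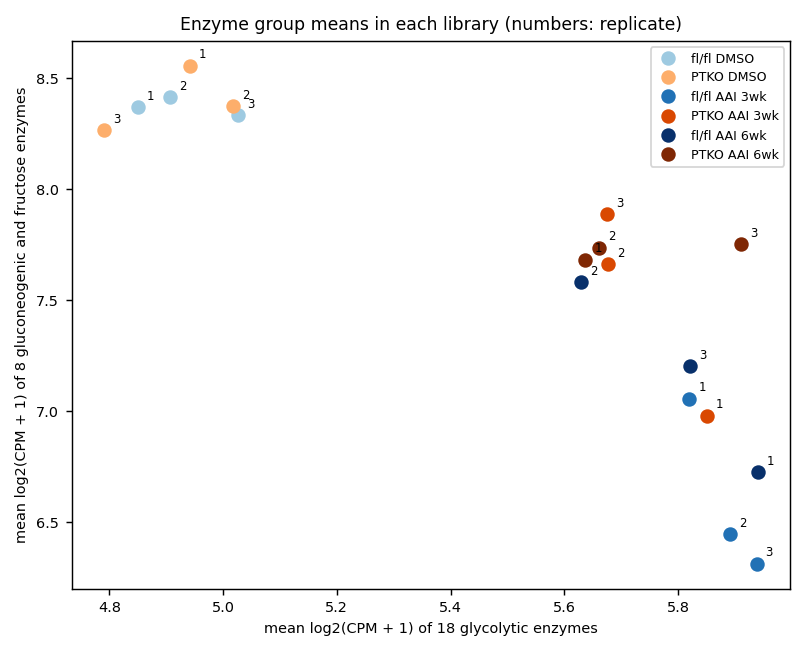
Mean log2(CPM + 1) of 8 enzymes of glucose synthesis and fructose use against that of 18 glycolytic enzymes, a point for each of 18 libraries with its replicate number. The 6 DMSO libraries lie at the upper left, at a difference of 3.31 to 3.61, and the fl/fl libraries after 3 weeks of AAI lie lowest, apart from replicate 1, which is beside PTKO replicate 1.

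Ratios between isoforms within a library were taken on CPM + 1 and depend little on its scaling where both genes are far above 1 CPM. Hk2 under DMSO, at 0.424 to 1.88 CPM, is not, so the added 1 shrinks its DMSO ratios. Levels of the 2 genes are not compared here since gene lengths differ. The log2 ratio of Pck1 to Pck2 was 6.81 to 7.64 in fl/fl DMSO libraries and 2.35 to 3.89 after 3 weeks, with no overlap. In PTKO it was 7.44 to 8.14 under DMSO and 3.59 to 7.34 after 3 weeks, again with the 2 groups just apart. For Pfkp over Pfkm the ratio was -0.87 to -0.28 (fl/fl DMSO), 1.81 to 1.95 (fl/fl, 3 weeks), -0.39 to -0.31 (PTKO DMSO) and 1.17 to 1.37 (PTKO, 3 weeks). Here the genotypes did not overlap after 3 weeks of AAI, and at 6 weeks they did (1.33 to 1.89 in fl/fl, 1.01 to 1.65 in PTKO). Pkm over Pklr moved from between 1.23 and 1.45 to between 2.17 and 2.79 in fl/fl, and from between 1.21 and 1.37 to between 1.27 and 2.24 in PTKO, where the groups overlapped. At 6 weeks it was 1.58 to 2.24 in fl/fl and 1.47 to 1.80 in PTKO, both apart from DMSO. For Hk1 over Hk2 it was 5.83 to 6.53 in fl/fl DMSO libraries and 2.69 to 2.85 after 3 weeks, and in PTKO 5.56 to 6.12 and 3.28 to 3.45. Ldha over Ldhb, in contrast, was -0.79 to -0.68 under DMSO and -0.79 to -0.54 after 3 weeks in fl/fl, and the groups overlapped.

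Between genotypes none of the 30 enzymes was called under DMSO by limma, where 0.288% of all genes were. By unadjusted p under 0.05 limma found 1 (Pck2), and edgeR and DESeq2 on the recovered reads called 0 each, against 33 and 113 of all 14604 genes. The unadjusted share of all genes is not given here, so nothing is drawn from Pck2. The DMSO difference in Khk was 0.05 (95% interval -0.38 to 0.48) and in Pck1 0.29 (-1.07 to 1.65). After 3 weeks of AAI, 8 enzymes were called higher in PTKO (6.22% of all genes were) and 2 lower (8% of all genes). Those higher were Pcx, Pck1, Fbp1, Slc37a4, Khk, Mdh1, Pklr and Pfkm, and those lower were Hk3 and Pfkfb4. Khk differed by 1.16 (SE 0.20, adjusted p = 0.00373), Mdh1 by 0.73 (SE 0.14, adjusted p = 0.00588) and Slc37a4 by 0.86 (SE 0.19, adjusted p = 0.0102). For these 3 genes and Pfkm (0.36) each PTKO library was above each fl/fl library. Pck1 (2.55, SE 0.64, adjusted p = 0.018), Pcx (0.99), Fbp1 (0.92) and Pklr (0.54) were called although the groups overlapped, since PTKO replicate 1 lay inside the fl/fl range each time. G6pc had a difference of 1.05 that was not called (adjusted p = 0.14). Hk3 was lower by 1.58 (adjusted p = 0.0336) with overlap, and Pfkfb4 by 0.56 (adjusted p = 0.0432) with none.

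These genotype calls depended on single libraries. Each of the 10 held in 18 of 18 repeats that left out 1 library for Khk and Mdh1, in 16 for Slc37a4, in 14 for Pcx, Pck1, Fbp1, Pklr, Pfkm and Hk3, and in 10 for Pfkfb4. Leaving out fl/fl 3-week replicate 2 or 3, or PTKO 3-week replicate 2 or 3, left 3, 2, 3 and 2 calls in that order, and fitting the 2 groups alone left 4. Of all genes, the fit of the 2 groups alone called 1411, against 2077 with all 6 groups. All-gene counts without single libraries are not given here. The proximal tubule marker sum was also higher in PTKO at 3 weeks (6442 to 9308 against 3304 to 5901 CPM), with 13 of its 15 genes called higher, and the macrophage sum lower with 9 of 11 genes called lower. Their part in the enzyme differences was not tested, and levels of the falling enzymes relative to the tubule markers are given below. At 6 weeks Mdh1 was the 1 enzyme called higher in PTKO (0.54, SE 0.14, adjusted p = 0.0196), against 3.27% of all genes, and Hk3 the 1 called lower (-1.50, SE 0.46, adjusted p = 0.0388), against 11.8%. The Hk3 call was lost by ratio scaling (-1.38, adjusted p = 0.054), by quantiles (-1.33, adjusted p = 0.0668) and by edgeR (adjusted p = 0.0603), and held by DESeq2 (adjusted p = 0.022). Without fl/fl 6-week replicate 2, the shallowest library, 10 were called, without any single one of fl/fl replicate 1, fl/fl replicate 3 and PTKO replicate 1 at that time 0 were called, and without fl/fl DMSO replicate 2 or PTKO 6-week replicate 3 there was 1. Differences at 6 weeks in Pck1 (1.66, adjusted p = 0.0896) and Slc37a4 (0.50, adjusted p = 0.0859) missed the threshold.

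**Figure D4:**
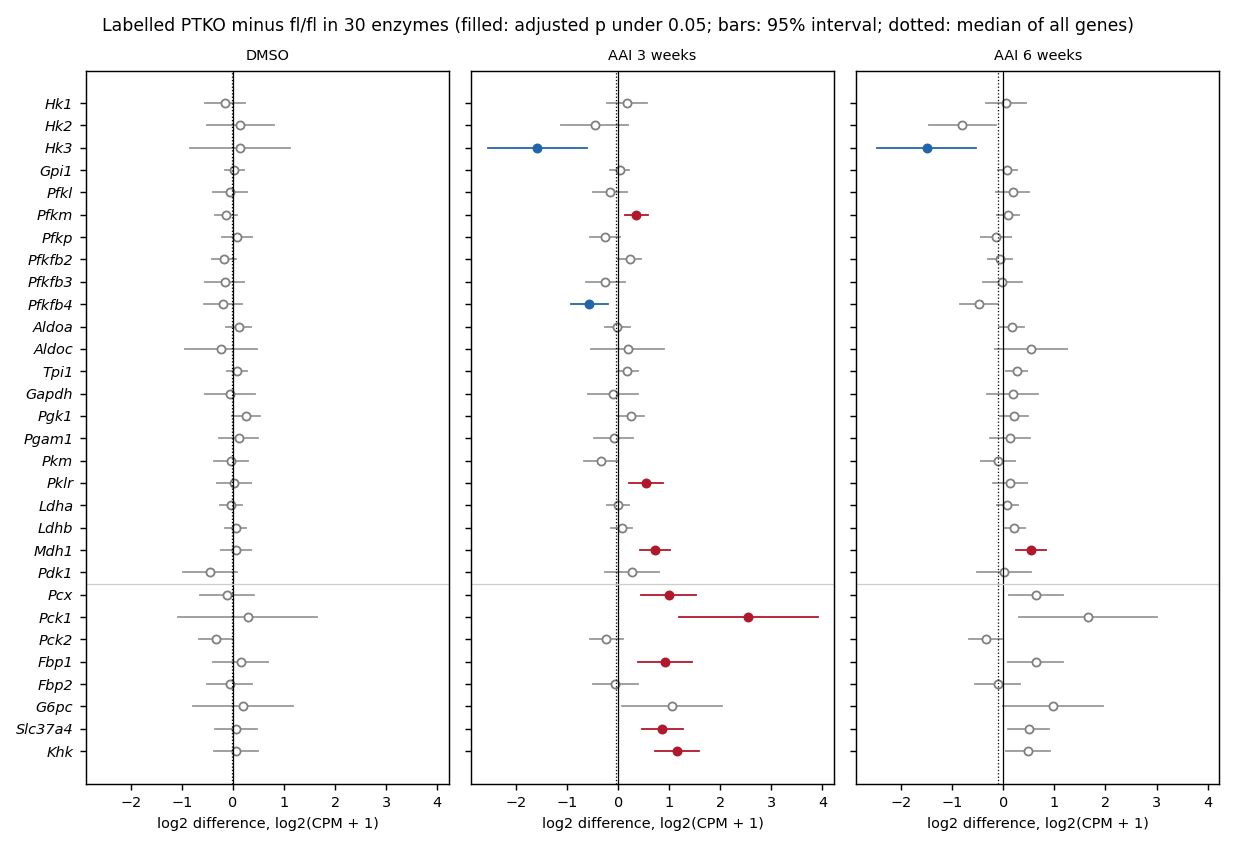
Difference between PTKO and fl/fl libraries on the log2(CPM + 1) scale for 30 enzymes under DMSO, after 3 weeks of AAI and at 6 weeks, with 95% intervals from limma, filled where called, and the dotted line at the median of all genes. The DMSO panel has no filled point, the 3-week panel has 8 to the right and 2 to the left, and the 6-week panel has Mdh1 to the right and Hk3 to the left.

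Whether AAI acted differently in the 2 genotypes was tested as an interaction. By limma 0 enzymes were called at 3 weeks and 0 at 6 weeks, against 0.281% and 0.0685% of all genes. At an unadjusted p under 0.05 there were 10 and 3, edgeR called 0 and 0, and DESeq2 called 2 and 0. Of all 14604 genes edgeR called 18 and 1 and DESeq2 558 and 85, and the unadjusted share of all genes is not given here. For Khk the interaction at 3 weeks was 1.11 (95% interval 0.50 to 1.72, adjusted p = 0.0745) and for Pck1 2.26 (0.33 to 4.18, adjusted p = 0.201). Limma and edgeR thus did not show the fall of any gluconeogenic enzyme to differ between the genotypes. Of the 7 gluconeogenic genes, 4 had 3-week levels called higher in PTKO, and G6pc, Pck2 and Fbp2 did not. Without PTKO 3-week replicate 1, 5 enzymes passed at 3 weeks, without fl/fl 6-week replicate 2 there were 2, and without fl/fl 3-week replicate 1 there was 1. The all-gene counts of these fits are not given here, so these counts are not read as particular to the enzymes.

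Between 3 and 6 weeks in fl/fl, 3 enzymes were called higher and 0 lower, against 7.16% and 6.07% of all genes. Khk rose by 0.84 (SE 0.20, adjusted p = 0.0158), Pklr rose by 0.53 (adjusted p = 0.0362) and Mdh1 by 0.44 (adjusted p = 0.0485). Of these, the Khk call alone held under all 3 scalings, and leaving out 1 library moved the count between 0 and 6. The count was 0 without fl/fl 3-week replicate 3 or fl/fl 6-week replicate 2, 1 without fl/fl 3-week replicate 2, 5 without PTKO 3-week replicate 1 or fl/fl 6-week replicate 1, and 6 without fl/fl 3-week replicate 1. Khk at 6 weeks was still below DMSO in every fl/fl library. Pcx, Fbp1, G6pc, Slc37a4 and Pck1 had differences of 0.43 (Pcx) to 1.47 (Pck1, 95% interval 0.11 to 2.83) that were not called. In PTKO, limma called 0 enzymes between 3 and 6 weeks, against 11.2% of all genes. At an unadjusted p under 0.05 there were 5 (Hk2, Tpi1, Ldhb, Gpi1 and Aldoa), edgeR called 1 and DESeq2 4. Of all 14604 genes edgeR called 1280 and DESeq2 2168, and the unadjusted share is not given here. Leaving out fl/fl 6-week replicate 2 gave 2 calls, and leaving out PTKO replicate 2 of either time gave 1. The all-gene counts of the fits with 1 library left out are not given here, in either genotype. Hk2 had a difference of -0.83 (95% interval -1.50 to -0.17).

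Since the proximal tubule markers fell as well, each falling enzyme was also expressed per 1000 CPM of the marker sum. Fbp1 was 44.7 to 47.4 per 1000 in fl/fl DMSO libraries and 62.4 to 76.8 after 3 weeks, so it fell less than the markers did. Slc37a4 (12.99 to 13.36, then 17.1 to 22.3) and Mdh1 (51.4 to 54.1, then 99.5 to 134.2) behaved alike. Pcx ranges overlapped, at 45.8 to 51.9 and 43.0 to 52.1 per 1000. Those of Khk overlapped too, at 20.8 to 21.6 and 19.3 to 30.4. In the other comparisons Khk per 1000 lay above DMSO, at 30.7 to 34.1 in fl/fl at 6 weeks, and in PTKO at 27.2 to 31.5 and 26.8 to 29.1 against 17.5 to 24.6. Pck1 fell further than the markers in fl/fl after 3 weeks, from 96.1 to 112.4 down to 44.9 to 78.5, and at 6 weeks its range of 77.7 to 192.5 overlapped with DMSO. In PTKO at 6 weeks Pck1 was 211.0 to 289.3 per 1000, above its DMSO range of 101.0 to 160.1, and at 3 weeks it spread from 62.6 to 460.0. G6pc was 24.7 to 32.5 per 1000 under DMSO in fl/fl and 13.1 to 33.9 after 3 weeks, with overlap. After 3 weeks the fl/fl and PTKO ranges per 1000 overlapped for all of these enzymes. They were 43.0 to 52.1 and 44.0 to 54.7 for Pcx and 62.4 to 76.8 and 60.8 to 81.7 for Fbp1. For Slc37a4 they were 17.1 to 22.3 and 17.1 to 20.85, and for Mdh1 99.5 to 134.2 and 95.9 to 115.6. Those of Khk were 19.3 to 30.4 and 27.2 to 31.5, and those of G6pc 13.1 to 33.9 and 16.3 to 30.4. The markers are genes whose level per cell may itself change, which was not tested, so these ratios are descriptions. Per 1000 CPM of macrophage and monocyte markers, Hk3 was 1.04 to 1.95 in fl/fl DMSO libraries, 4.38 to 4.69 after 3 weeks and 2.95 to 5.19 at 6 weeks. PTKO values were 1.40 to 3.24, 2.73 to 7.48 and 2.55 to 2.96, with overlap. Hk2 per 1000 overlapped with DMSO in fl/fl, at 2.43 to 7.15 under DMSO, 3.95 to 5.48 after 3 weeks and 4.71 to 6.59 at 6 weeks. In PTKO it was 4.59 to 10.92, 8.32 to 12.74 and 4.41 to 11.04, also with overlap.

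**Figure D5:**
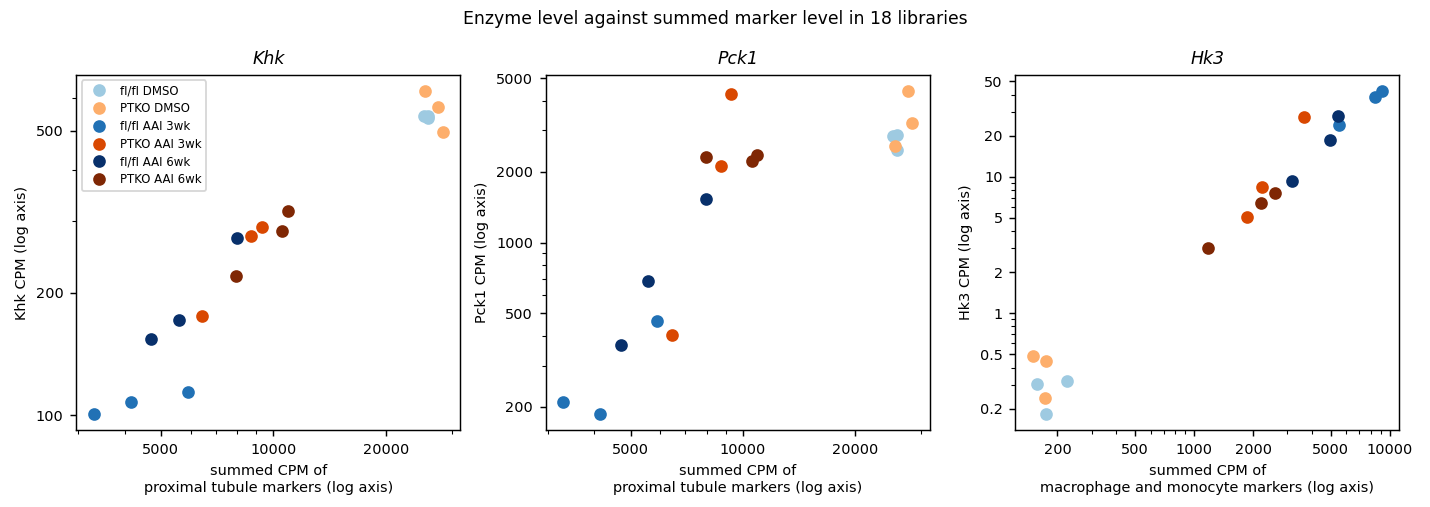
Level of Khk and Pck1 against the summed level of 15 proximal tubule markers, and of Hk3 against that of 11 macrophage and monocyte markers, in 18 libraries on log axes. Hk3 and its marker sum are both lowest in the 6 DMSO libraries, and after 3 weeks PTKO replicate 1 is level with the fl/fl libraries in Hk3, at 27.4 CPM, but below them in marker sum, at 3655 against 5513 to 9126 CPM.

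Of 33 other genes of these pathways, 31 are in the table and 27 were tested. After 3 weeks in fl/fl 8 were higher and 15 lower, against 58% and 18.2% of all genes, and in PTKO 7 and 15, against 57.2% and 13.9%. Sord, sorbitol dehydrogenase, which makes fructose from sorbitol, was 1010.5, 1018 and 1119 CPM under DMSO and 236, 178 and 177 CPM after 3 weeks in fl/fl. Glyctk, glycerate kinase, a late step of fructose breakdown, was 322, 311 and 306 CPM and 63.7, 54.9 and 44.1 CPM. Both fell with no overlap, by 2.42 (adjusted p = 2.10e-08) and 2.52 (adjusted p = 1.37e-07), as did Pdk2, a pyruvate dehydrogenase kinase, by 1.54. The rises with the smallest adjusted p were Pgm1, a phosphoglucomutase (1.31), Eno2, the enolase known from neurons (2.84), and Hkdc1, a hexokinase-like protein (1.46). Eno2 was 0.545, 1.27 and 0.581 CPM under DMSO and 10, 10.6 and 15.1 CPM after 3 weeks in fl/fl. Akr1b3, aldose reductase, was listed at 0 in each library. Between genotypes, 7 of the 27 were higher in PTKO and 0 lower at 3 weeks, against 6.22% and 8% of all genes.

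Of 14 regulators of these pathways, 4 were higher and 7 lower after 3 weeks in fl/fl, against 58% and 18.2% of all genes. Hnf4a, a nuclear receptor of liver and proximal tubule, was 1199, 1256 and 1216 CPM under DMSO and 509, 373 and 272 CPM after 3 weeks in fl/fl. PTKO libraries held 1304, 1216 and 1439 CPM and 592, 647 and 589 CPM of it. It fell by 1.71 in fl/fl (SE 0.19, adjusted p = 6.80e-07), and the fl/fl groups did not overlap. Mlxipl, the carbohydrate response factor ChREBP, fell by 1.38 and its partner Mlx by 0.68. Rises had the smallest adjusted p for Myc (3.03), which activates glycolytic genes, Creb1 (0.74), the cAMP response factor, and Hif1a (0.62), the hypoxia factor. Between genotypes at 3 weeks, 2 of the 14 were higher in PTKO, namely Hnf4a and Mlxipl, at 0.71 and 0.67, and 0 were lower, against 6.22% and 8% of all genes.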

How the data were processed

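RNA from kidney cortex was sequenced in 18 libraries, 3 in each of 6 groups taken from the sample titles. The authors deposited a table of CPM per gene symbol, in which every library sums to the same total. The submitters' processing notes name bcl2fastq 2.19, kallisto and the mm10 build, with no roles, and the kallisto version is not given in the sources used here. Whole reads were recovered from the CPM steps for 100% of 433116 values, within 0.01 read, and totals of 11722625 to 27213219 reads give a floor of 3 reads at 0.11 to 0.256 CPM, for counting error only.

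Genes at 1 CPM or more in 3 or more libraries (14604 of 24062) were fitted together as log2(CPM + 1) with limma 3.58.1 in R 4.3.3, a mean for each of the 6 groups and a variance trend, and 11 comparisons were adjusted by Benjamini-Hochberg over all genes. All 6 groups shared 1 estimate of the spread, with 12 residual degrees of freedom. The test was tried on simulated data with equal numbers of rises and falls. These data under CPM held far more rises after AAI, so nothing is drawn from that trial. An exact test of 3 libraries against 3 cannot go below p = 0.1. Alternatives were another pseudocount (0.1), filters (5 CPM or none), scaling by the median of gene ratios or by quantiles, no trend, the compared groups alone, a replicate block, libraries left out, and edgeR 4.0.16 and DESeq2 1.42.0 on the recovered reads. Same-numbered libraries did not deviate together more than others (median correlation 0.008 over 45 pairs, against 0.007 over 90 differently numbered pairs), so numbers were not used as pairs.

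The members and lists were chosen with earlier results of these data known. Values in every library are given for the 10 members with the largest fl/fl 3-week differences, those called between genotypes and any at 0. From the other pathway genes and regulators, 3 higher and 3 lower with the smallest adjusted p were named, and 1 regulator and a motif are not reported here. Shared stretches of 31 bases were counted in GENCODE transcripts, and promoters came from the RefSeq table, which matched all 31 members.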

Additional observations from a re-analysis of the deposited data

How the results depend on the processing

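The falls of Pcx, Khk, G6pc, Slc37a4 and Pgk1 after AAI held under CPM, ratio and quantile scaling in all 4 comparisons. So did the rises of Hk1, Hk2, Hk3, Pfkp, Pkm, Pfkfb3 and Pfkfb4. Pgk1 is among the low-listed enzymes, whose values cannot be read as the level of the enzyme. Small differences turned with the scaling. Gpi1 in fl/fl at 3 weeks became -0.26 by ratio scaling, -0.28 by edgeR and -0.26 by DESeq2, Aldoa -0.13, -0.15 and -0.13, and Pklr -0.088, -0.0986 and -0.081 (quantiles -0.0077). In fl/fl at 6 weeks Gpi1 became -0.12 under each of those 3 and Aldoa -0.0605, -0.0585 and -0.0565, and in PTKO at 3 weeks Gpi1 became -0.24, -0.22 and -0.24. Under quantiles Ldhb became 0.10 at 3 weeks in both genotypes, and Tpi1 and Ldha became 0.088 and 0.038 in fl/fl at 6 weeks. Enzymes called higher in fl/fl at 3 weeks numbered 8 by ratio scaling, 7 by edgeR and 8 by DESeq2, those called lower in PTKO at 6 weeks 12, 12 and 12, and those called lower in PTKO at 3 weeks 14 by DESeq2. Of all 14604 genes, 5353, 5270 and 5382 were called higher in fl/fl at 3 weeks by the same tools. Those called lower in PTKO were 4215, 3867 and 4253 at 6 weeks, and 4672 by DESeq2 at 3 weeks. For the genotype at 3 weeks, the compared groups alone gave 4 enzymes and 1411 of all genes, against 2077 of all genes by limma on CPM. For the genotype at 6 weeks, a pseudocount of 0.1 gave 1 enzyme, no filter 1, the compared groups alone 0, DESeq2 6 and 3 libraries left out together 7. All-gene counts were 1756 (pseudocount), 1958 of 20027 (no filter), 163 (compared groups alone) and 2321 (DESeq2), against 2198 by limma on CPM. Between 3 and 6 weeks in fl/fl, no filter gave 1 enzyme, ratio scaling 1, the compared groups alone 0 and the 3 libraries left out 0. All-gene counts were 1764 of 20027 (no filter), 1919 (ratio scaling) and 562 (compared groups alone), against 1932 by limma on CPM. In PTKO the enzymes called between 3 and 6 weeks were 1 (5 CPM filter), 1 (ratio scaling), 1 (no trend), 1 (edgeR), 4 (DESeq2) and 2 (3 libraries left out). All-gene counts were 1527 of 12478 (5 CPM filter), 1385 (ratio scaling), 1490 (no trend), 1280 (edgeR) and 2168 (DESeq2), against 1633 by limma on CPM. For the interaction at 3 weeks the enzymes called were 3 (compared groups alone), 2 (DESeq2) and 2 (3 libraries left out). All-gene counts were 581 (compared groups alone) and 558 (DESeq2), against 41 by limma on CPM. All-gene counts with libraries left out are not given here, and the cause of these changes was not tested. Leaving out 1 library moved the enzymes called lower in fl/fl at 6 weeks between 7 and 11 (7 without fl/fl DMSO replicate 1 or fl/fl 6-week replicate 1), the genotype calls between 2 and 11 at 3 weeks and between 0 and 10 at 6 weeks, the calls between 3 and 6 weeks between 0 and 6 in fl/fl and 0 and 2 in PTKO, and the 3-week interaction between 0 and 5. The difference of the 2 enzyme means became 3.83 and 3.85 under DMSO in fl/fl and PTKO and 2.23 in PTKO at 6 weeks with a pseudocount of 0.1, and 4.27, 4.43 and 2.23 with medians. Without Gapdh, Pgk1, Pgam1 and Eno1, an alternative chosen after seeing the data, it was 2.62 and 2.68 under DMSO, -0.38 and 0.72 at 3 weeks and 0.26 and 0.93 at 6 weeks.

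With a replicate block, 12 enzymes were called higher and 11 lower in fl/fl at 3 weeks and 10 in the genotype comparison at 3 weeks. Of all 14604 genes, the block fit called 8403 higher and 2617 lower in fl/fl at 3 weeks, and 1816 in that genotype comparison. Same-numbered libraries correlated over 0.1 in 10 of 45 pairs and differently numbered ones in 20 of 90, so no pairing by number was seen. The block moved none of the other counts of calls by more than 1.5 times. Differences in genes near 1 CPM, such as Hk2 and Hk3 under DMSO, rest on few reads.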
